A study of Mus musculus with 10 samples.

Results

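Fatty acid synthesis turns surplus carbon into long-chain fatty acids, and tumours often run this pathway to supply membrane lipids for dividing cells. Citrate is split by ATP citrate lyase, acetyl-CoA is carboxylated to malonyl-CoA by the acetyl-CoA carboxylases, fatty acid synthase builds palmitate, and the product is then elongated by Elovl6 and desaturated by the stearoyl-CoA desaturases. Transcription of these enzymes is driven by sterol regulatory element-binding proteins (SREBPs), membrane-bound factors that are escorted by Scap and held back by the Insig proteins. The 9 genes followed here are Srebf1, which encodes SREBP-1, Acly, Me1, Acaca, Acacb, Fasn, Elovl6, Scd1 and Scd2. They were taken by name from the platform annotation, as every probe set whose only gene symbol was one of these, which gave 11 probe sets of 35556 on the array and 9 genes of 19938.

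Transcript levels were measured on Affymetrix whole-transcript arrays in melanoma tumours of male mice, 1 array per tumour sample. The Exercise group held arrays 300, 301, 306, 309 and 310, and the non-Exercise group held arrays 326, 327, 329, 330 and 331, with tumours of both groups labelled as melanoma. The series title names voluntary exercise. The labels used here do not give the tumour line, mouse strain, age, running protocol or time of collection. They also do not state that each number is a separate animal, and p-values therefore rest on the spread among these tumour samples, which may be partly technical. Levels are log2 values after quantile normalization, and a change is the Exercise mean minus the non-Exercise mean, followed by ± its SE. A gene was called changed at a limma adjusted p under 0.05 (Benjamini-Hochberg over all 19938 genes, two-sided).

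Melanocytic transcripts were found in both groups, with the melanin enzyme gene Dct at 13.55 ± 0.08 in Exercise arrays and 13.58 ± 0.04 in non-Exercise arrays (SD, n = 5 each). Of 10 melanocytic markers 0 passed the test, with 8 negative and 2 positive changes and a median of -0.04. The largest change was that of Kit, at -0.35 ± 0.13 (limma adjusted p = 0.0829). Transcripts of other tissues differed between arrays. Of 18 measured hepatocyte genes 4 were called higher in Exercise and 0 lower, where 6.35% and 10.6% of all genes were. Among the 4 was Arg1, highest in Exercise array 300 (10.70) and lowest of the Exercise group in array 306 (8.85). For 16 of the 18 the Exercise arrays 306, 309 and 310 lay above the other 7 arrays, with Alb, which encodes albumin, at 12.77, 12.97 and 12.28 in them, 7.05 and 7.47 in Exercise arrays 300 and 301, and between 6.84 and 9.22 in the non-Exercise arrays. A hepatocyte score, made by centring each listed gene on its mean and averaging, ranged from -0.63 to 1.51 in Exercise arrays and from -0.71 to -0.35 in non-Exercise arrays. The adipocyte score of 14 measured genes ranged from -0.70 in array 301 to 1.08 in array 310 within the Exercise group and from -0.63 to 0.35 in the non-Exercise group, and 1 of the 14, the adipokine gene Retn, was higher in Exercise. Of 12 macrophage genes 11 were higher in Exercise, among them Itgam by 1.43 ± 0.23 (limma adjusted p = 0.00114), with scores of -0.32 to 1.04 against -0.87 to -0.30. The muscle score had the widest span, from -1.13 in array 310 to 1.53 in array 309 within the Exercise group and from -0.64 to 0.22 in the non-Exercise group, and 0 of 10 muscle genes passed. Liver and fat are themselves lipogenic tissues, and in whole-tumour RNA fewer cells of a type and less RNA per cell cannot be told apart.

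In the exercise comparison 2 of the 9 genes passed the test, both lower, and 0 were higher. Acly and Scd2 fell by 0.17 each on the log2 scale, 1.12-fold and 1.13-fold lower. Across all genes 17.0% were called, 6.35% higher and 10.6% lower, so 2 of 9 lies near the background of the array. The median log2 change of the 9 genes was 0.02, against -0.02 for all genes, with 6 positive and 3 negative values. For 0 of the 9 did the groups separate, where 12.1% of all genes had separate groups, 3.74% with all Exercise arrays above and 8.33% with all below. At an unadjusted p under 0.05 there were 3 of 9, against 29.2% of all genes.

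**Figure D1:**
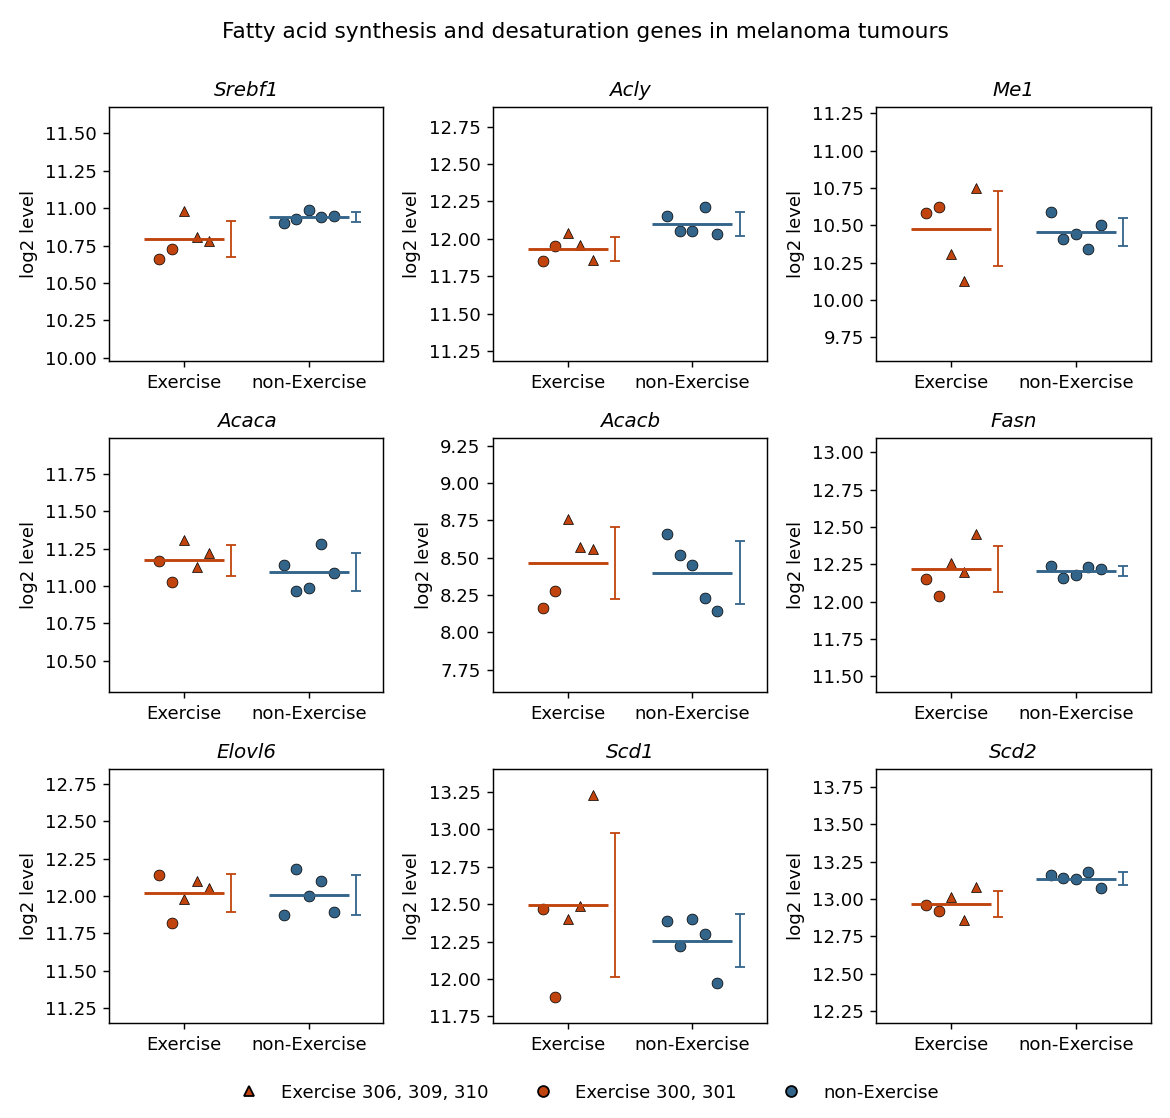
Log2 level (vertical axis, the same span in every panel) of each gene on each array, Exercise at the left and non-Exercise at the right; lines are group means and bars are SD (n = 5 each). Triangles are Exercise arrays 306, 309 and 310. The groups overlap in every panel, and the Exercise arrays are the more scattered for Srebf1, Me1, Fasn, Scd1 and Scd2.

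Acly encodes ATP citrate lyase, which cleaves cytosolic citrate into acetyl-CoA and oxaloacetate and so supplies the carbon for the pathway. Its log2 level was 11.85, 11.95, 12.04, 11.96 and 11.86 in Exercise arrays 300, 301, 306, 309 and 310, against 12.15, 12.05, 12.05, 12.21 and 12.03 in non-Exercise arrays 326, 327, 329, 330 and 331. The groups overlapped by 1 array each, since Exercise array 306 lay just above non-Exercise array 331. The change was -0.17 ± 0.05 (limma adjusted p = 0.0419). The call was lost without any 1 of Exercise arrays 300, 301, 309 and 310 or non-Exercise arrays 326, 327, 329 and 330, with changes of -0.19 to -0.14 and adjusted p of 0.0233 to 0.108 over all 10 arrays left out in turn. With the hepatocyte score as a covariate the change was -0.20 (limma adjusted p = 0.0955), and with the adipocyte score -0.13 (limma adjusted p = 0.141), neither past the threshold. The call also ended with the melanocytic score, at -0.14 (limma adjusted p = 0.394), without the intensity trend (limma adjusted p = 0.10), and without Exercise arrays 306, 309 and 310, at -0.20 (limma adjusted p = 0.0622).

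Acly and Fasn, the fatty acid synthase gene, are both textbook SREBP targets, and of this pair only Acly was called. Their promoters are shown for that reason, as the 250 bases before the RefSeq start on GRCm38.p6, minus strand for both, with the motif matches in capitals.
Acly, chr11:100528001-100528250: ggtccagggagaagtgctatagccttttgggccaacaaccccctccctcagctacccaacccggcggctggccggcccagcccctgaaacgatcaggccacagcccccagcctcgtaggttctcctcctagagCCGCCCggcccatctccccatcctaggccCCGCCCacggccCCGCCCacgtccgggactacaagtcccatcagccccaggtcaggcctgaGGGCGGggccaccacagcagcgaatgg
Fasn, chr11:120824548-120824797: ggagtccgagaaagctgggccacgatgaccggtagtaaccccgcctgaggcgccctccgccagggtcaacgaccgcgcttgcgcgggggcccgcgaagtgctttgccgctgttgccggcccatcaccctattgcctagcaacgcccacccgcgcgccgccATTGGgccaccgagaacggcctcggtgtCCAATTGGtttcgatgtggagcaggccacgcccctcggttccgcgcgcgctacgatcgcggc
The Acly window holds 4 matches to the GC box GGGCGG, bound by Sp1, and 0 to the NF-Y box CCAAT. The Fasn window holds 3 matches to CCAAT, 2 of them overlapping in CCAATTGG, and 0 GC boxes. Both motifs were searched on both strands, and 32.7% and 33.8% of all 32851 such windows hold a GC box and a CCAAT box. Other windows resembled each of the pair. A Me1 window held 3 GC boxes and 0 CCAAT boxes, like that of Acly, and Me1 was not called. The other Me1 window and the Acacb window held 1 CCAAT box and 0 GC boxes each, and Acacb was not called. The 3 Srebf1 windows held 0, 2 and 2 GC boxes and 1, 0 and 1 CCAAT boxes. The Acaca and Elovl6 windows held neither motif. Any part of these motifs in the calls was not tested. Neither the Acly nor the Fasn window matched the E-box CACGTG (6.02% of windows) or the sterol response element core TCACNCCAC (1.05%). The RefSeq table had windows for 7 of the 9 genes, and Scd1 and Scd2 were not among them.

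Scd2 is 1 of the mouse stearoyl-CoA desaturases, which place the first double bond into saturated fatty acids and yield oleate and palmitoleate, and it is the form best known from brain. It was measured at 12.96, 12.92, 13.01, 12.86 and 13.08 in Exercise arrays 300, 301, 306, 309 and 310, against 13.16, 13.14, 13.13, 13.18 and 13.07 in non-Exercise arrays 326 to 331. Only Exercise array 310, the highest of its group, and non-Exercise array 331, the lowest of its group, crossed. Scd2 fell by 0.17 ± 0.05 (limma adjusted p = 0.0188). The call was lost without non-Exercise array 326, at the same change of -0.17 (limma adjusted p = 0.0515), and held without Exercise arrays 306, 309 and 310 together, at -0.19 (limma adjusted p = 0.0179). The call also ended with the hepatocyte score as a covariate, at -0.18 (limma adjusted p = 0.0901), with the melanocytic score, at -0.10 (limma adjusted p = 0.452), and without the intensity trend in the variance (limma adjusted p = 0.0795).

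Scd1, the paralogue of Scd2 and the main desaturase of liver, fat and sebaceous gland, had the widest spread of the 9 genes. Its log2 level was 12.47, 11.88, 12.40, 12.49 and 13.23 in Exercise arrays 300, 301, 306, 309 and 310, against 12.39, 12.22, 12.40, 12.30 and 11.97 in non-Exercise arrays 326, 327, 329, 330 and 331. Exercise array 310 lay above all other arrays and Exercise array 301 below them. The mean was 12.50 ± 0.48 in Exercise arrays and 12.26 ± 0.18 in non-Exercise arrays (SD, n = 5 each). The change of 0.24 ± 0.18 did not pass (limma adjusted p = 0.428), and its 95% interval of -0.14 to 0.62 allows changes between 1.1-fold lower and 1.53-fold higher. Without Exercise array 310 the change was 0.06.

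The level of Scd1 varied with the scores of several marker lists. The adipocyte score was lowest in Exercise array 301, at -0.70, and highest in Exercise array 310, at 1.08, the arrays with the lowest and the highest Scd1. Adipoq, the adipokine gene adiponectin, was at 7.54 in array 301 and 10.29 in array 310, and at 7.20 to 9.08 in the non-Exercise arrays. After group means were removed, Scd1 and the adipocyte score had a Pearson correlation of 0.81 and a Spearman correlation of 0.65 over 10 arrays, given as a description, and 0.33 by Pearson over 8 arrays without arrays 301 and 310, so the relation rests on those samples. Other lists came close, with a Pearson correlation of 0.70 for the macrophage score, -0.69 for the keratinocyte score and -0.64 for the sebaceous score, and of 0.61, -0.38 and -0.56 over 8 arrays without the 2 farthest out in each score. Macrophage scores were 1.02 in array 310 and -0.32 in array 301, the lowest of the Exercise group. With the adipocyte score as a covariate the change of Scd1 was 0.01, and with the hepatocyte score it was 0.03. With the melanocytic score it was 0.61 and did not pass (limma adjusted p = 0.222). The sebaceous score ranged from -0.16 to 0.05 in Exercise arrays, lowest in array 310, and from -0.01 to 0.17 in non-Exercise arrays, and the part of other cell types in the Scd1 levels was not tested beyond these values.

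**Figure D2:**
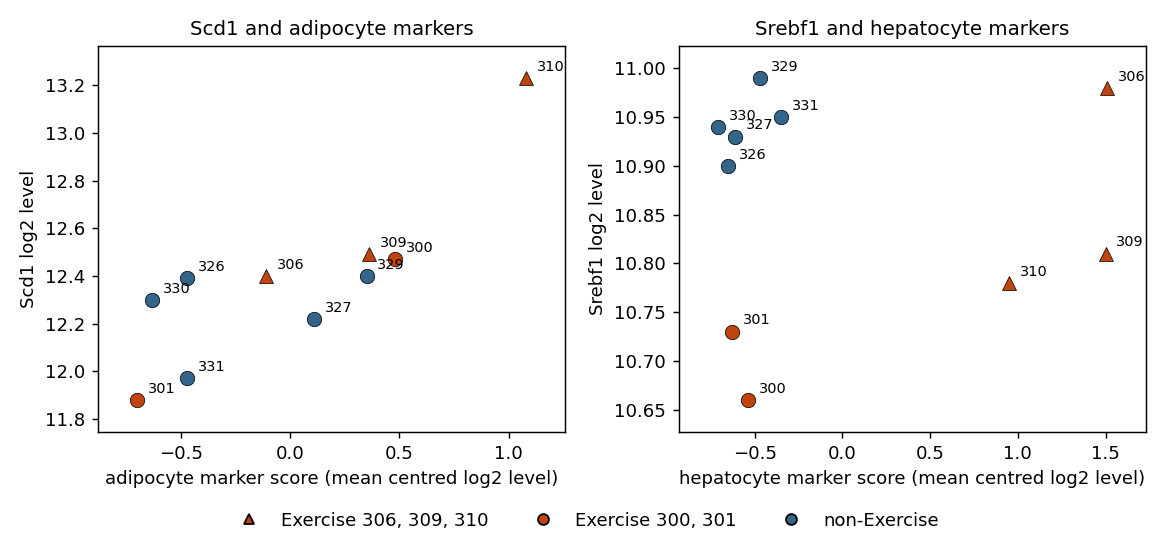
Log2 level of Scd1 against the adipocyte marker score (left) and of Srebf1 against the hepatocyte marker score (right), 1 point per array with its number; scores are mean centred log2 levels. Array 310 holds the highest Scd1 level (13.23) and adipocyte score (1.08), and the 2 Exercise arrays with low hepatocyte scores, 300 and 301, hold the lowest Srebf1 levels (10.66 and 10.73).

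Srebf1 encodes SREBP-1, the transcription factor that drives the lipogenic enzymes. It was at 10.66, 10.73, 10.98, 10.81 and 10.78 in Exercise arrays 300, 301, 306, 309 and 310, against 10.90, 10.93, 10.99, 10.94 and 10.95 in the non-Exercise arrays 326, 327, 329, 330 and 331. Of the Exercise arrays 4 lay below all non-Exercise arrays and array 306 lay within them. The change of -0.15 ± 0.06 did not pass (limma adjusted p = 0.118; 95% interval -0.28 to -0.02). Without array 306 it was -0.20 and passed (limma adjusted p = 0.0247). Leaving out any other single array gave no call, with limma adjusted p up to 0.242. It also did not pass with the adipocyte score or the melanocytic score as a covariate, at -0.15 in both (limma adjusted p = 0.201 and 0.412). Nor did it pass without the intensity trend (limma adjusted p = 0.164).

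Srebf1 was also set beside the hepatocyte transcripts. The Exercise arrays 306, 309 and 310, with hepatocyte scores from 0.95 to 1.51, had Srebf1 at 10.78 to 10.98. The Exercise arrays 300 and 301, with scores of -0.54 and -0.63, had it at 10.66 and 10.73, below the 5 non-Exercise arrays, whose scores were -0.71 to -0.35. Without arrays 306, 309 and 310 the change was -0.24 (limma adjusted p = 0.0244), and with the hepatocyte score as a covariate it was -0.25 (limma adjusted p = 0.0382), both past the threshold. The 3 genes whose group-centred levels were most like Srebf1 over the 10 arrays were the liver enzyme genes Sult2a8, Cyp2c29 and Cyp3a11, with Pearson correlations of 0.98, 0.94 and 0.93. Cyp3a11 was at 9.29 in array 306, at 7.44 and 7.18 in arrays 309 and 310, and between 6.71 and 6.84 in the others. Array 306 also had the highest Srebf1 of the Exercise group, and correlations without it were not computed. Arrays 306 and 309 had hepatocyte scores of 1.51 and 1.50, with Srebf1 at 10.98 and 10.81. The part of the hepatocyte transcripts in the Srebf1 levels was not tested beyond these values.

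Acetyl-CoA carboxylase makes malonyl-CoA, the committed substrate of the pathway, and comes as a cytosolic form from Acaca and a mitochondrial form from Acacb whose product restrains fatty acid oxidation. Acaca was at 11.17, 11.03, 11.31, 11.13 and 11.22 in Exercise arrays 300, 301, 306, 309 and 310, against 11.14, 10.97, 10.99, 11.28 and 11.09 in non-Exercise arrays 326, 327, 329, 330 and 331, and only Exercise array 306 lay outside the non-Exercise range. The change was 0.08 ± 0.07 (limma adjusted p = 0.540), with a 95% interval of -0.07 to 0.23. Acaca had 2 probe sets, and the dimmer gave 0.06 (limma adjusted p = 0.665 over probe sets). Acacb, the dimmest of the 9 genes at percentile 36.8 of mean level, was at 8.16, 8.28, 8.76, 8.57 and 8.56 in the same Exercise arrays, against 8.66, 8.52, 8.45, 8.23 and 8.14 in the same non-Exercise arrays. Its change was 0.07 ± 0.13 (limma adjusted p = 0.813; 95% interval -0.20 to 0.34). Within the Exercise group arrays 306, 309 and 310 were the higher ones, as for the hepatocyte markers, and without them the change was -0.18 (limma adjusted p = 0.471). In the non-Exercise group array 331, with the highest hepatocyte score (-0.35), had the lowest Acacb. Group-centred Acacb had Pearson correlations of 0.65 with the hepatocyte score, -0.80 with the sebaceous score and -0.73 with the keratinocyte score. These are descriptions over 10 arrays and were not tested.

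Fasn encodes fatty acid synthase, the multi-domain enzyme that assembles palmitate from malonyl-CoA and NADPH. Its log2 level was 12.15, 12.04, 12.26, 12.20 and 12.45 in Exercise arrays 300, 301, 306, 309 and 310, against 12.24, 12.16, 12.18, 12.23 and 12.22 in non-Exercise arrays 326, 327, 329, 330 and 331. The non-Exercise arrays lay within 0.1 of each other, while Exercise arrays 300 and 301 lay below all of them and Exercise arrays 306 and 310 above all of them. The change was 0.02 ± 0.06 (limma adjusted p = 0.924), and the 95% interval of -0.12 to 0.15 reaches 1.09-fold lower and 1.11-fold higher.

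Elovl6 elongates palmitate to stearate, the substrate of the desaturases. It was at 12.14, 11.82, 11.98, 12.10 and 12.05 in Exercise arrays 300, 301, 306, 309 and 310, against 11.87, 12.18, 12.00, 12.10 and 11.89 in non-Exercise arrays 326, 327, 329, 330 and 331, and the ranges nearly coincided apart from Exercise array 301. Its change of 0.01 ± 0.07 did not pass (limma adjusted p = 0.946; 95% interval -0.14 to 0.17). Me1, cytosolic malic enzyme and a source of NADPH for the synthase, was at 10.58, 10.62, 10.31, 10.13 and 10.75 in the Exercise arrays in that order, against 10.59, 10.41, 10.44, 10.34 and 10.50 in the non-Exercise arrays. Exercise arrays 306 and 309 lay below all non-Exercise arrays, and Exercise arrays 301 and 310 above them. Muscle scores were 1.09 and 1.53 in arrays 306 and 309 and -1.12 and -1.13 in arrays 301 and 310. Group-centred Me1 and the muscle score had a Pearson correlation of -0.75 over 10 arrays and -0.56 without arrays 301 and 310, as a description, and the part of muscle transcripts in the Me1 levels was not tested. The change was 0.02 ± 0.10 (limma adjusted p = 0.943; 95% interval -0.20 to 0.24), and the second, dimmer probe set of Me1 gave -0.07 (limma adjusted p = 0.743 over probe sets).

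**Figure D3:**
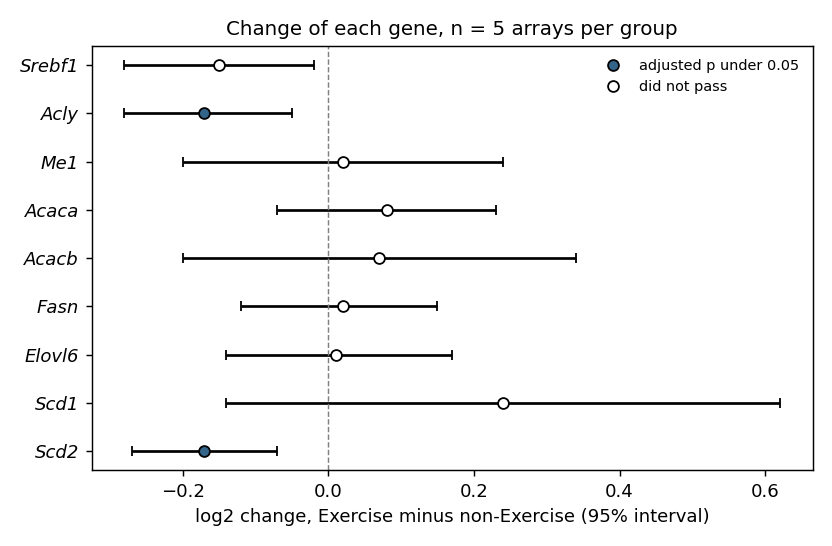
Log2 change of each gene, Exercise minus non-Exercise (horizontal axis), with its 95% interval from the limma fit (n = 5 arrays per group); filled points passed an adjusted p of 0.05. Only Acly and Scd2 are filled, both at -0.17, and the interval of Scd1, from -0.14 to 0.62, is the widest.

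The spread of several genes was larger among the Exercise arrays than among the non-Exercise arrays. The SD in Exercise arrays was 4.27 times that in non-Exercise arrays for Fasn, 3.72 times for Srebf1, 2.74 times for Scd1, 2.65 times for Me1 and 2.06 times for Scd2. In all, 6 of the 9 genes were more spread in Exercise, or 66.7%, against 63.7% of all genes. The median ratio was 2.06 for the 9 genes and 1.22 for all genes. With 5 arrays per group these ratios are descriptions and were not tested.

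The 9 genes did not vary as 1 block within the groups. Over their 36 pairs the Pearson correlation of group-centred levels had a median of 0.23 and ranged from -0.52, between Srebf1 and Me1, to 0.86, between Fasn and Scd1. All are descriptions over the same 10 arrays. The value for Fasn and Scd1 was -0.09 when arrays 301 and 310 were left out, with a Spearman correlation of 0.47 over all 10 arrays, so it rests on those samples. Fasn and Acaca kept a Pearson correlation of 0.74 without the 2 arrays farthest out in Acaca, Exercise array 306 and non-Exercise array 330, against 0.56 with them (Spearman 0.79).

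By the same measure, the 3 genes most like each of the others had Pearson correlations between 0.90 and 0.98 over the 10 arrays. They were picked as the highest out of nearly all 19938 genes, and such a choice over 10 arrays gives high values by itself. These correlations, and those given for Srebf1, are descriptions and were not tested. For Fasn the 3 genes were Glul, which encodes glutamine synthetase, Foxp3 and the urea transporter gene Slc14a1. For Scd1 they were Nova1, the water channel gene Aqp1 and the cytokine receptor gene Lifr, and for Scd2 they were Xpr1, Gprc5b and Stk38l. For Acly they were Tmem268, Mroh1 and Pex19, for Acaca Hip1, Usp21 and Gpr137, and for Acacb Mfsd9, Rab11b and Tomm40l. For Elovl6 they were Acss1, which encodes mitochondrial acetyl-CoA synthetase, Hsd17b4, an enzyme of peroxisomal fatty acid oxidation, and Armcx4. For Me1 they were Zmym2, the mitofusin gene Mfn1 and Ncald.

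Beyond the 9 genes, 78 measured genes of 7 lists chosen by role included 6 that were higher and 15 that were lower in Exercise, 7.69% and 19.2% against 6.35% and 10.6% of all genes. Their median log2 change was -0.05. Of the 15 lower genes 12 stayed past the threshold whichever 1 array was left out, and 13 without Exercise arrays 306, 309 and 310. Of the 6 higher genes 3 did in each case. With the melanocytic score as a covariate 0 of the 15 and 1 of the 6 passed, while over all genes 67 higher and 122 lower calls were left. Among the lower genes, as examples, Srebf2, Insig1 and Slc25a1 were then at -0.19, -0.16 and -0.15, against main changes of -0.30, -0.33 and -0.32. Fads1, Aacs and Cs stayed near their main changes, at -0.32, -0.31 and -0.23 against -0.34, -0.33 and -0.20. Their SE rose to 0.07, 0.11 and 0.08 from 0.04, 0.07 and 0.05. The melanocytic score ranged from -0.08 to 0.01 in Exercise arrays and from -0.02 to 0.08 in non-Exercise arrays. With so little overlap between groups, the fit cannot well tell this covariate apart from the group. The part of melanocytic content in these changes was not tested.

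The SREBP regulators showed 3 lower genes and 0 higher of 16 measured, with a median log2 change of -0.10. Srebf2, which encodes SREBP-2, the form tied most closely to cholesterol synthesis, was at 12.06, 12.27, 12.38, 12.31 and 12.36 in Exercise arrays 300, 301, 306, 309 and 310, against 12.59, 12.53, 12.56, 12.70 and 12.51 in the non-Exercise arrays. All Exercise arrays lay below all non-Exercise arrays, and the change was -0.30 ± 0.06 (limma adjusted p = 0.00428). Insig1, which retains the SREBP and Scap complex in the endoplasmic reticulum and is itself induced by SREBP, fell by 0.33 ± 0.07 with the groups separate (limma adjusted p = 0.00694). Scap, the escort of SREBP, changed by -0.25 ± 0.07 with overlapping groups (limma adjusted p = 0.0175), and without non-Exercise array 330 by -0.22 (limma adjusted p = 0.0501). Nr1h3, which encodes the sterol receptor LXR alpha that activates Srebf1, had a change of 0.48 ± 0.18 that did not pass (limma adjusted p = 0.0899).

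Of 10 genes that supply carbon and NADPH, 4 were lower and 0 higher, with a median of -0.14. Idh1, a cytosolic source of NADPH, was at 11.58, 11.35, 11.57, 11.55 and 11.51 in Exercise arrays 300, 301, 306, 309 and 310, against 11.92, 11.98, 12.01, 11.94 and 11.69 in the non-Exercise arrays. It fell by 0.39 ± 0.07 (limma adjusted p = 0.00125), with the groups separate. Slc25a1, the mitochondrial citrate carrier that delivers the substrate of ATP citrate lyase, fell by 0.32 ± 0.07 (limma adjusted p = 0.00876). Aacs, acetoacetyl-CoA synthetase, fell by 0.33 ± 0.07 (limma adjusted p = 0.00500). The fourth was the citrate synthase gene Cs (-0.20), named after its value was seen.

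Among the desaturases outside the 9 genes and their electron donors, 2 of 8 were lower and 0 higher. Fads1, the delta-5 desaturase of polyunsaturated fatty acids, was at 12.53, 12.46, 12.57, 12.53 and 12.47 in Exercise arrays 300, 301, 306, 309 and 310, against 12.85, 12.81, 12.88, 12.96 and 12.75 in the non-Exercise arrays. The groups did not overlap, and Fads1 fell by 0.34 ± 0.04 (limma adjusted p = 0.000286). Its neighbour in the pathway, the delta-6 desaturase Fads2, fell by 0.24 ± 0.05 (limma adjusted p = 0.00693), also with separate groups. The remaining stearoyl-CoA desaturase genes Scd3 (-0.16) and Scd4 (0.13) did not pass. Of 11 elongation genes 0 passed (limma), the smallest p being that of Elovl7, with a change of -0.22 ± 0.07 (limma adjusted p = 0.0504), followed by Elovl5 at -0.19 ± 0.06 (limma adjusted p = 0.0516). This 0 depends on the setting, since 2 elongation genes were lower on the deposited table, with the filter on dim genes, with robust variance, with array weights and without Exercise arrays 306, 309 and 310, and 4 with arrays centred on their medians. Leaving out 1 array gave 0 to 2 lower elongation genes, and none was higher in any of these fits.

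Genes that control acetyl-CoA carboxylase moved in both directions, 2 of 12 higher and 3 lower. Stk11, which encodes the kinase LKB1 upstream of AMPK, the kinase that phosphorylates and inhibits both carboxylases, was at 11.14, 11.14, 11.07, 11.16 and 10.97 in Exercise arrays 300, 301, 306, 309 and 310, against 10.42, 10.28, 10.36, 10.39 and 10.51 in the non-Exercise arrays. It rose by 0.70 ± 0.06 with the groups far apart (limma adjusted p = 2.55e-05). Mid1ip1, whose product promotes polymerization of acetyl-CoA carboxylase, fell by 0.49 ± 0.08 on its brightest probe set (limma adjusted p = 0.00119), and by 0.25 on the mean of its probe sets (limma adjusted p = 0.0219). Of the AMPK subunit genes Prkag2 (-0.38) and Prkaa2 (-0.26) fell and Prkab2 (0.26) rose, while Prkaa1, Prkab1 and Prkag1 had changes of 0.03, 0.01 and -0.03 and did not pass. With the hepatocyte and the adipocyte score as covariates Prkaa2 was at -0.13 and -0.17. Without Exercise arrays 306, 309 and 310, Prkag2 (-0.29), Prkaa2 (-0.12) and Prkab2 (0.27) did not pass. Prkaa2 also lost its call without any 1 of Exercise arrays 300, 306, 309 and 310 or non-Exercise arrays 326, 329, 330 and 331 (-0.28 to -0.21 in these), and Prkab2 for arrays 301, 306 and 310 (Exercise) and each non-Exercise array but 331 (0.22 to 0.27).

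In glycerolipid synthesis 3 of 10 genes were lower and 1 was higher. The acyltransferase genes Agpat3 and Agpat2 fell by 0.27 ± 0.05 and 0.31 ± 0.06 (limma adjusted p = 0.00260 and 0.00383). The phosphatidate phosphatase genes went opposite ways, Lpin1 at -0.36 ± 0.11 and Lpin2 at 0.33 ± 0.06 (limma adjusted p = 0.0321 and 0.00389). The call of Lpin1 depended on Exercise arrays 300 and 301 and on each of the non-Exercise arrays but 331, any of which ended it when left out (-0.36 to -0.27). The change of Lpin1 was -0.61 without Exercise arrays 306, 309 and 310 (limma adjusted p = 0.00189), -0.59 with the hepatocyte score as a covariate (limma adjusted p = 0.00319), and -0.21 with the melanocytic score, not past the threshold (limma adjusted p = 0.490).

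Of 11 genes of uptake and storage 3 were higher and 0 lower. The balance depended on the arrays and the setting: without Exercise arrays 306, 309 and 310 there were 1 higher and 3 lower, and 1 was lower on the deposited table, with arrays centred on their medians, with the filter on dim genes, with robust variance, with array weights and with the hepatocyte score. Plin2, which coats lipid droplets in most cell types, rose by 0.41 ± 0.06 with the groups separate (limma adjusted p = 0.00067).

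Slc27a1, a fatty acid transporter, and Cd36, a fatty acid translocase also made by macrophages and adipocytes, were the other 2 higher genes of uptake, at 0.36 ± 0.10 and 0.84 ± 0.27 (limma adjusted p = 0.0239 and 0.0437). The call of Slc27a1 ended when any 1 of arrays 309 and 310 (Exercise) and 326, 327 and 330 (non-Exercise) was left out (0.30 to 0.36). That of Cd36 ended likewise for arrays 300, 309 and 310 (Exercise) and 326, 329, 330 and 331 (non-Exercise), at 0.67 to 0.93. Without Exercise arrays 306, 309 and 310 neither passed, at 0.23 and 0.85. With the adipocyte score as a covariate Cd36 was at 0.47 and did not pass (limma adjusted p = 0.0650). The highest Cd36 levels, 11.79, 11.72 and 11.16, were in Exercise arrays 310, 300 and 309, which also had the 3 highest adipocyte and macrophage scores.

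**Figure D4:**
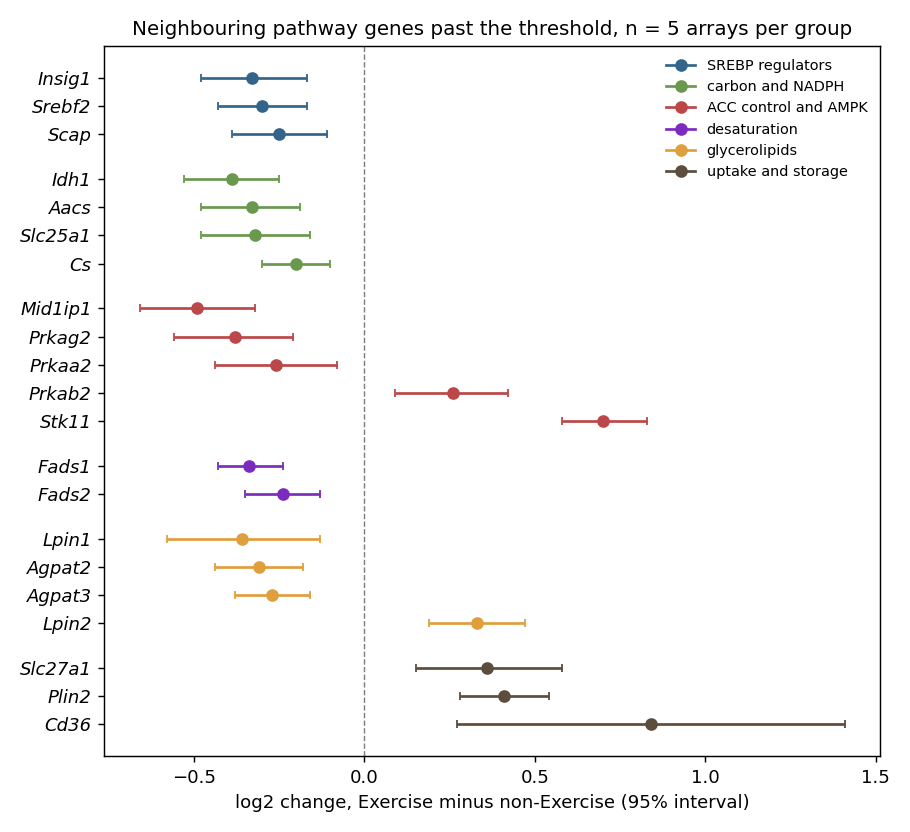
Log2 change (Exercise minus non-Exercise, horizontal axis) with its 95% interval for the 21 neighbouring pathway genes past the threshold, coloured by role (n = 5 arrays per group). The SREBP regulators, the carbon and NADPH genes and the desaturases lie left of 0, Stk11 lies at 0.70, and the 3 uptake and storage genes lie right of 0.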

How the data were processed

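The authors' table of log2 values per probe set was used as deposited, summarised with PLIER per the submitters' processing notes with no version. The labels used here state neither the log base nor any normalization across arrays. The scale was taken as log2 because the values lie between 4.66 and 14.55. Array medians differed by 0.126, over the limit of 0.1, so quantile normalization was applied (limma 3.58.1, R 4.3.3). Probe sets with 1 gene symbol (21789) were used, and the brightest stood for a gene. lmFit and eBayes with an intensity trend compared 5 Exercise and 5 non-Exercise arrays over 19938 genes. No dim gene was removed, no batch is given, and the number of arrays limits the precision. No pair of arrays shared over 1 identical value.

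The 9 genes and all lists were chosen with earlier results of these data known. In each list up to 3 called genes per direction, by smallest p, were named, and for each of the 9 the 3 genes with the highest correlation, passing over predicted genes and clones. Of each marker list the 2 brightest genes and the most different one could be named. Cs, Nr1h3, Scd4, Elovl5, Prkaa1, Prkab1, Prkag1 and Adipoq were named outside this rule, after their values were seen. The listed genes not analysed here numbered 7 of 85. On 10 simulated sets of 19938 genes, with 200 changed, 75.2% of changes of 0.5 and 96.3% of changes of 1 were recovered. Smaller changes, as in the 9 genes, were not simulated. The simulated noise was independent between genes and had the same SD in both groups. In the data 3384 genes were called, and the median SD ratio of Exercise to non-Exercise arrays was 1.22. The recovered shares therefore need not hold for the real comparison. The alternatives were other scalings, probe set means, a filter on dim genes, other variance settings, array weights, marker scores as covariates, an adjusted p threshold of 0.10, and leaving out arrays. Figures used Python 3.11.15 and matplotlib 3.10.9.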

Additional observations from a re-analysis of the deposited data

Results flagged for a closer look

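In 56 measures (the 9 genes, the pathway and marker genes named and the marker scores), each group was checked for a single array far from the other 4. Of 112 groups 3 were picked out, 2.68%, where chance gives about 1 in 20, and none was of the 9 genes. Idh1 was at 11.35 in Exercise array 301 and between 11.51 and 11.58 in the other Exercise arrays, and at 11.69 in non-Exercise array 331 against 11.92 to 12.01 in the other non-Exercise arrays. Mid1ip1 was at 9.85 in Exercise array 301 and between 9.50 and 9.59 in the other Exercise arrays.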

How the results depend on the processing

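Results are compared with those of the quantile-normalized fit. Leaving out 1 array in turn gave 857 to 1528 higher and 1435 to 2331 lower genes in all, 0 to 3 of the 9 genes lower, 0 higher, and 3 to 8 higher and 12 to 20 lower pathway genes. Over these fits the log2 change ranged from -0.04 to 0.06 for Fasn, 0.04 to 0.12 for Acaca, -0.01 to 0.14 for Acacb, -0.19 to -0.14 for Acly, 0.06 to 0.39 for Scd1, -0.20 to -0.14 for Scd2, -0.02 to 0.06 for Elovl6, -0.20 to -0.12 for Srebf1 and -0.05 to 0.11 for Me1. No setting put any of the 9 genes higher past the threshold.

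On the deposited table Fasn was at -0.01 and Elovl6 at -0.02. Centring arrays on their medians moved the median of all genes to -0.05 and gave 938 higher and 3076 lower genes (23.4% higher against 37.4%), 3 higher and 26 lower pathway genes, Fasn -0.08, Acaca -0.01, Elovl6 -0.08, Me1 -0.06 and Srebf1 -0.23 (past the threshold). The mean of probe sets gave Me1 -0.02. Array weights gave Fasn -0.02 and Acacb -0.04. Without the intensity trend 0 of the 9 genes passed, Acly and Scd2 both at -0.17.

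The hepatocyte covariate left 491 higher and 1251 lower genes, 1 of the 9 lower, 3 pathway genes higher, Fasn -0.08, Acacb -0.15, Acly -0.20, Scd2 -0.18, Elovl6 -0.01 and Srebf1 -0.25, the last past the threshold. The adipocyte covariate left 1 of the 9 lower, Fasn -0.03, Acly -0.13 and Elovl6 -0.05. The melanocytic covariate left 67 higher and 122 lower genes, 0 of the 9, 1 higher and 0 lower pathway genes, Acly -0.14, Scd2 -0.10 and Elovl6 -0.03. With it Scd1 was at 0.61 and Acacb at 0.34, neither past the threshold. Without Exercise arrays 306, 309 and 310 there were 753 higher genes and 3 higher pathway genes, with Fasn -0.11, Acacb -0.18, Acly -0.20 (not past the threshold), Scd1 -0.08, Elovl6 -0.02 and Srebf1 -0.24 (past it). An adjusted p threshold of 0.10 gave 10 higher and 23 lower pathway genes. The cause of these shifts was not tested. No paired analysis was possible because the groups share no replicate number.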
